A study of Homo sapiens with 6 samples.

Results

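IL1RL1 and CCL26 were followed in OVCAR5 cells, an established ovarian cancer cell line, together with 4 partner genes, IL33, IL1RAP, CCL24 and STAT6. IL1RL1 and CCL26 were selected on these same values, for levels that were higher the longer SpiD7 was applied, and the partners were added for their known roles. The 6 genes are 6 of the 29982 gene symbols in the deposited table. All 6 were found in it, and 4 of them (IL1RL1, CCL26, IL1RAP and STAT6) were among the 13287 genes that averaged at least 1 FPKM over all libraries, while IL33 and CCL24 fell below that limit. FPKM divides the fragments assigned to a gene by its length and by the size of the library, so that levels of different genes can be set side by side.

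RNA-Seq was done on 6 libraries. Of these, 2 came from vehicle-treated (DMSO) cells and 2 from a 2 h treatment with SpiD7 at 10 μM, and the same dose was given for 6 h in 1 library and for 12 h in another. SpiD7 is the covalent compound that the study examined as an activator of the unfolded protein response, and DMSO was its vehicle, for which the labels give no duration. No label states whether replicates came from separate cultures, so that spread between them may be technical. The second library of DMSO and of 2 h was recovered here from the authors' mean of the group, and is called the recovered library.

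IL1RL1 encodes ST2, the receptor for the alarmin cytokine IL-33, and ST2 signals together with the coreceptor encoded by IL1RAP through MYD88 and IRAK kinases. It exists as a membrane receptor and as a secreted decoy, both made from the same gene, and is best known from mast cells, type 2 innate lymphoid cells and endothelium. CCL26 (eotaxin-3) and CCL24 (eotaxin-2) are neighbouring chemokine genes whose products attract eosinophils through the receptor CCR3, and in epithelial cells CCL26 is a known target of IL-4 and IL-13 acting through STAT6.

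The DNA upstream of IL1RL1 and CCL26 is shown because it is where factors that set the level of these RNAs could bind. IL1RL1 has 2 RefSeq start sites, a distal and a proximal one, both on the plus strand, and CCL26 has 1, on the minus strand. Of the 250 bases before each start, only the part outside GENCODE exons is printed, in GRCh38.p14, with any motif match in capitals. The distal IL1RL1 stretch (chr2:102311313-102311501, 189 bases) held 1 match, to a GATA element, and the proximal one (chr2:102337007-102337147, 141 bases) and the CCL26 stretch (chr7:75789897-75789996, 100 bases) held 0.
IL1RL1 distal: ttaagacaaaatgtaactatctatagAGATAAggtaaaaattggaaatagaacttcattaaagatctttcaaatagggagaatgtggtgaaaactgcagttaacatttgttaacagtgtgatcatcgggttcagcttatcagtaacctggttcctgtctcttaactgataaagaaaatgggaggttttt
IL1RL1 proximal: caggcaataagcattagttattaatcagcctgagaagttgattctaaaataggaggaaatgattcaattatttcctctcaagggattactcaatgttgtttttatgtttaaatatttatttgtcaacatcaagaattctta
CCL26: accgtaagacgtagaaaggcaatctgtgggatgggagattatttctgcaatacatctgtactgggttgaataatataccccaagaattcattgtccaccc

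The GATA match, AGATAA on the plus strand, began 224 bases before the distal RefSeq start. Both strands of the full windows were searched for 8 motifs, and each share given is that of all 35116 RefSeq windows of the same length that held the motif. The GATA element was in 9.17% of windows. The heat shock element, spelled GAANNTTC or TTCNNGAA, was in 11.6%, and the STAT6 element, spelled TTCNNNNGAA, in 5.38%. The AP-1 element, spelled TGAGTCA, was in 4.2% of windows, and the cyclic AMP response element, spelled TGACGTCA, in 1.65%. The ATF4-C/EBP element, spelled TGATGCAA, was in 0.772%, and the NRF2 element, spelled TGACNNNGC, in 10.9%. The short core bound by XBP1 and ATF6, spelled CCACG, was in 33.5%. The full CCL26 window, like the full proximal IL1RL1 window, held 0 matches. The bases that follow the RefSeq start of CCL26 were not found unbroken in a GENCODE transcript, whereas those of both IL1RL1 starts were. A CCL24 window held an AP-1 match 142 bases before its start that overlapped an NRF2 match. This window also held a GATA match at 152, an XBP1 and ATF6 core at 70 and another NRF2 match at 230 bases. The other CCL24 window held an AP-1 match 13 bases before its start. The STAT6 window held a GATA match 166 and an XBP1 and ATF6 core 67 bases before its start. The IL1RAP window held such a core at 69 bases, and both IL33 windows held 0 matches. A match describes letters only, and the absence of one says nothing about a factor.

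IL1RL1 stood at 0.152 FPKM in the first and 0.141 FPKM in the recovered DMSO library. At 2 h it was 1.498 FPKM in the first and 2.39 FPKM in the recovered library. It reached 5.00 FPKM at 6 h and 13.6 FPKM at 12 h. Both DMSO libraries were near the bottom of the measurable range, both 2 h libraries lay above them with no overlap, and each later library lay above every earlier one. On the log2(FPKM + 0.1) scale, IL1RL1 exceeded the mean of the DMSO libraries by 3.02 at 2 h, by 4.37 at 6 h and by 5.80 at 12 h. With a pseudocount of 1 in place of 0.1 these were 1.34, 2.39 and 3.67. The log2 difference of the recovered from the first library was -0.07 in DMSO and 0.64 at 2 h. At DMSO levels so near the pseudocount of 0.1, the pseudocount narrows such a difference. The steps from 2 h to 6 h and from 6 h to 12 h were of like size, 1.35 and 1.43 on the log2 scale, and the FPKM itself was 2.72 times as high at 12 h as at 6 h. These values chose the gene, so they are given as a description without a test, and the 6 h and 12 h libraries have no replicate.

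**Figure D1:**
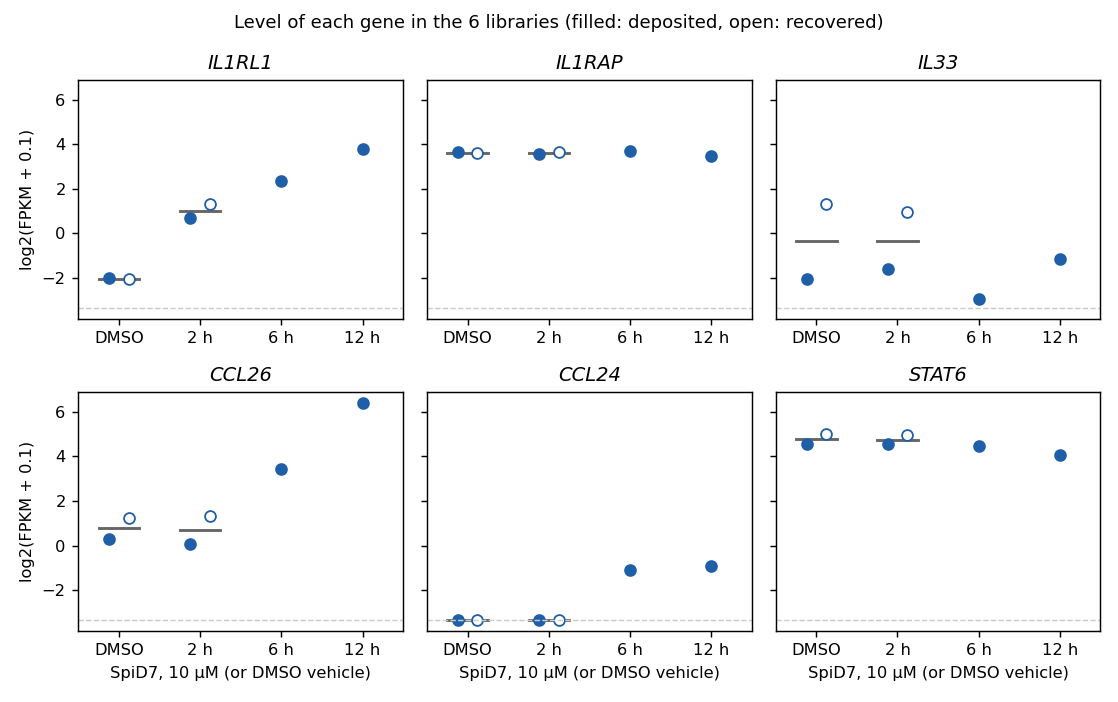
Level of the 6 genes, as log2(FPKM + 0.1), in the 2 DMSO libraries, the 2 libraries at 2 h and the single libraries at 6 h and 12 h of 10 μM SpiD7. Filled points are deposited libraries, open points recovered ones, short lines the mean of 2 libraries, and the dashed line an FPKM of 0. IL1RL1 stands higher at 2 h, 6 h and 12 h in turn, CCL26 first stands above DMSO at 6 h, IL1RAP stays near 12 FPKM, and IL33 is high only in the 2 recovered libraries.

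IL1RL1 stood above DMSO from 2 h on and CCL26 from 6 h on. Of the 13287 genes, 415 (3.12%) stood higher in mean log2 value at 2 h than in DMSO, higher again at 6 h and at 12 h, and more than 2-fold above DMSO at 12 h. IL1RL1 was among them, whereas CCL26 was not, because its 2 h mean lay slightly below that of DMSO. For CCL26 the pattern it was selected on therefore holds from 6 h.

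CCL26 was measured at 1.13 FPKM in the first and 2.30 FPKM in the recovered DMSO library. The 2 h libraries gave 0.948 FPKM (first) and 2.43 FPKM (recovered). The level was 10.9 FPKM at 6 h and 84.4 FPKM at 12 h. The DMSO and 2 h libraries overlapped fully, and in both groups the recovered library was the higher one, whereas the 6 h and 12 h libraries stood above all 4 of them. Against the DMSO mean, the log2 fold change of CCL26 was -0.08 after 2 h, then 2.68 and 5.62 after 6 h and 12 h. Since the DMSO libraries themselves differed by 0.96 on the log2 scale, the 12 h value was 6.10 against the first and 5.14 against the recovered DMSO library, and the 6 h value was 3.16 and 2.19. The steps of CCL26 from the 2 h mean to 6 h and from 6 h to 12 h were 2.75 and 2.94 on the log2 scale, and its FPKM was 7.76 times as high at 12 h as at 6 h. Per length, CCL26 RNA was thus more abundant than IL1RL1 RNA at 12 h (84.4 against 13.6 FPKM) and also in DMSO. The 2 h libraries differed in this. CCL26 was less abundant in the first (0.948 against 1.498 FPKM) and about level in the recovered one (2.43 against 2.39 FPKM).

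Set among all 13287 genes by log2 fold change against the DMSO mean, IL1RL1 ranked 70 at 2 h, 71 at 6 h and 60 at 12 h, and CCL26 ranked 8756, 138 and 62. Levels more than 2-fold higher than the DMSO mean were found for 308 genes (2.32%) after 2 h, for 752 (5.66%) after 6 h and for 861 (6.48%) after 12 h, and levels more than 2-fold lower for 88 (0.662%), 412 (3.1%) and 499 (3.76%). Of the 59 genes ranked above IL1RL1 at 12 h, 51 were listed at 0 in both DMSO libraries, as were 51 of the 61 genes ranked above CCL26. Against each DMSO library taken singly, 515 genes (3.88%) passed 2-fold upwards and 132 (0.993%) downwards at 12 h, and IL1RL1 and CCL26 were among the 515. The order of the pair at 12 h depends on the pseudocount, since with a pseudocount of 1 the log2 fold change was 5.01 for CCL26 and 3.67 for IL1RL1. From 6 h to 12 h, CCL26 had the 53rd largest and IL1RL1 the 102nd largest step. The ranks and counts describe single libraries, and nothing is read from them beyond the values that selected the genes.

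**Figure D2:**
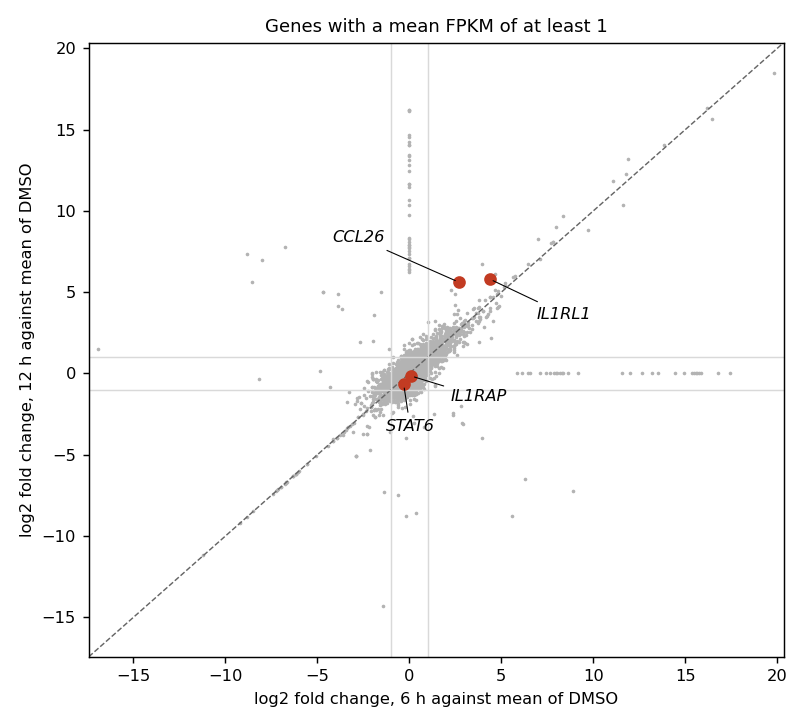
Log2 fold change on log2(FPKM + 0.1) against the mean of both DMSO libraries, 6 h on the horizontal axis and 12 h on the vertical axis, for the 13287 genes that averaged at least 1 FPKM (grey). The dashed line marks equal change and the light lines 2-fold. CCL26 (2.68, 5.62) lies further above the line of equal change than IL1RL1 (4.37, 5.80), and IL1RAP and STAT6 lie within 2-fold at both times.

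The coreceptor gene IL1RAP differed little between libraries. Its levels were 12.3 and 11.9 FPKM in DMSO, 11.7 and 12.6 FPKM at 2 h, 12.9 FPKM at 6 h and 10.9 FPKM at 12 h. The groups overlapped at 2 h, the 6 h library was the highest and the 12 h library the lowest of the 6. At 2 h the log2 fold change was 0.00 with a standard error of 0.16 and a 95% interval from -0.47 to 0.47 (limma, adjusted p = 1), so that changes of that size in either direction are not excluded by 2 libraries a group. The values at 6 h and 12 h were 0.09 and -0.16. In DMSO the coreceptor RNA was thus far more abundant per length than that of the receptor, and at 12 h IL1RL1 (13.6 FPKM) had passed IL1RAP (10.9 FPKM).

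IL33, the gene of the ligand, was high in the recovered library of both replicated groups and low elsewhere. It had 0.142 FPKM in the first and 2.42 FPKM in the recovered DMSO library. At 2 h the first library had 0.232 FPKM and the recovered library 1.83 FPKM. Single libraries gave 0.0297 FPKM at 6 h and 0.348 FPKM at 12 h. The 2 recovered libraries were high and the 4 deposited ones low, and the log2 difference between the DMSO libraries was 3.39. Whether IL33 was higher or lower at 12 h depended on the DMSO library used, with 0.89 against the first and -2.50 against the recovered one, and at 6 h it stood lower against both (-0.90 and -4.28). Of 3 markers of endothelial cells, which carry IL33 in tissue, PECAM1 and CDH5 were also highest in the recovered libraries, and VWF was highest at 12 h. PECAM1 had 0.736 and 10.7 FPKM in DMSO, 0.961 and 7.74 FPKM at 2 h, 0.32 FPKM at 6 h and 0.942 FPKM at 12 h. Over the 3 endothelial markers, the summed level was 8.31 to 11.5 FPKM in the 2 recovered libraries and 0.441 to 1.198 FPKM in the other 4, a sum that PECAM1 dominates. CDH5 had 0.725 and 0.539 FPKM in recovered DMSO and 2 h, and VWF had 0.0367 and 0.0321 FPKM there and 0.0860 FPKM at 12 h. The part of these differences in the IL33 values was not tested. In bulk RNA, fewer cells of a kind and less RNA per cell cannot be told apart.

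CCL24, the other eotaxin gene of the same cluster, was listed at 0 in both DMSO libraries and both 2 h libraries. It was at 0.368 FPKM at 6 h and 0.431 FPKM at 12 h. The 2 later libraries were thus the only ones with a value above 0, at a level far below that of CCL26. When each FPKM is multiplied by the relative depth of its library, it becomes proportional to reads, and the 6 h and 12 h values were then 0.408 and 0.411, 0.695% apart, so that about the same number of reads, which is not known, lay behind both. No fold is given against a group listed at 0, which can be a failed estimate. The other eotaxin gene, CCL11, and the receptor gene CCR3 were listed at 0 in all 6 libraries, and CX3CR1, which encodes a receptor that CCL26 can also bind, did not exceed 0.0316 FPKM.

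STAT6, the transcription factor downstream of the IL-4 receptor, was detected in every library and was not higher after SpiD7. It had 23.2 and 31.6 FPKM in DMSO and 23.5 and 30.6 FPKM at 2 h, followed by 21.9 FPKM at 6 h and 16.9 FPKM at 12 h. The DMSO and 2 h groups overlapped, and the 6 h and 12 h libraries lay below all 4 of them. The log2 fold change at 2 h was -0.01 with a standard error of 0.27 and a 95% interval from -0.81 to 0.78 (limma, adjusted p = 1). At 6 h and 12 h it was -0.31 and -0.68, within 2-fold. RNA does not report on the phosphorylated form through which STAT6 acts. STAT6 overlaps NAB2 and LRP1 on the other strand, and since counting is not stated to use strand, reads in the shared bases cannot be assigned with certainty.

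IL1RL1 lies on chromosome 2 (chr2:102311502-102352037, plus strand, GRCh38, GENCODE 29) within the cluster of IL-1 receptor genes. The annotation holds 9 transcripts of it, 5 of them protein-coding, and the deposited value is 1 level for the gene, so that membrane and secreted ST2 were not separated. IL18R1, which encodes a receptor subunit for IL-18, overlaps IL1RL1 on the same strand in this annotation, and the locus given for IL18R1 in the deposited table starts only at base 102356282, beyond the IL1RL1 gene. IL18R1 had 0.859 and 1.10 FPKM in DMSO, 0.876 and 1.22 FPKM at 2 h, 1.14 FPKM at 6 h and 1.08 FPKM at 12 h, a range in which the 6 h and 12 h libraries did not stand apart. Of the 7 neighbours, 3 passed the filter (IL1R1, IL18R1 and MFSD9), and 0 of these 3 were more than 2-fold higher or lower at 2 h, 6 h or 12 h. Over all genes 6.48% were higher and 3.76% lower at 12 h, so 0 of 3 does not set these neighbours apart. At 12 h the log2 fold change was 0.43 for IL1R1, the receptor for IL-1, and 0.68 for MFSD9. Among the others, IL1R2 reached 1.63 FPKM in the recovered 2 h library and 1.17 FPKM at 12 h against 0.309 and 0.707 FPKM in DMSO, SLC9A4 did not exceed 0.925 FPKM, IL1RL2 was at or near 0, and IL18RAP was listed at 0 in DMSO and at 2 h, with 0.154 FPKM at 6 h and 0.136 FPKM at 12 h.

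CCL26 lies on chromosome 7 (chr7:75769533-75789896, minus strand) with CCL24 (chr7:75811665-75823356, minus strand) next to it. All 6 neighbours on either side of the pair passed the filter, and 0 of 6 were more than 2-fold higher or lower than the DMSO mean at any of the 3 times, where 6.48% of all genes were higher and 3.76% lower at 12 h. The log2 fold changes at 12 h ran from -0.84 for HIP1, an endocytic adaptor, to 0.61 for RHBDD2. Both depended on the DMSO library, with -0.53 against the first and -1.15 against the recovered one for HIP1, and 1.13 and 0.09 for RHBDD2. POR, the cytochrome P450 reductase, had 0.45, TMEM120A 0.28, STYXL1 0.07 and MDH2, the mitochondrial malate dehydrogenase, -0.23. POR and TMEM120A share 1 locus in the table, and the ends of the genes overlap on opposite strands.

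**Figure D3:**
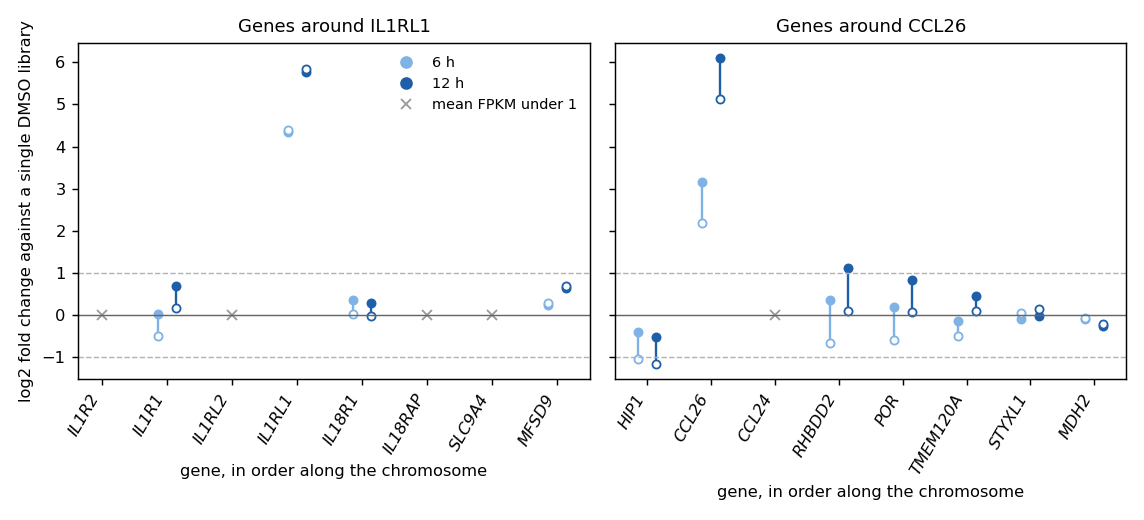
Log2 fold change on log2(FPKM + 0.1) at 6 h (light) and 12 h (dark) against the first (filled) and the recovered (open) DMSO library, for IL1RL1 and its 7 neighbours and for CCL26, CCL24 and their 6 neighbours, in order along the chromosome and not to scale. Crosses at 0 mark genes with a mean FPKM under 1, which have no fold change here. IL1RL1 and CCL26 stand more than 2-fold above both DMSO libraries, and the neighbours with a value lie near or within 2-fold.

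The pathway and neighbour lists were also counted together and set beside all genes. Counting each gene once, 34 genes of the pathway and neighbour lists passed the filter. At 2 h limma called 3 of all 13287 genes at an adjusted p under 0.05 and more than 2-fold (0.0226%) and 0 of these 34, and at an unadjusted p under 0.05 it gave 2 of the 34, SOCS1 and IL1RAPL1. With a replicate block the calls were also 0 and the unadjusted count was 7. More than 2-fold higher were 1, 2 and 3 of the 34 at 2 h, 6 h and 12 h (2.94%, 5.88% and 8.82%). More than 2-fold lower were 0, 2 and 2 (0%, 5.88% and 5.88%). Over all genes the shares were 2.32%, 5.66% and 6.48% higher and 0.662%, 3.1% and 3.76% lower. With 34 genes, nothing is read from the distance between these shares. The median log2 fold change of the 34 was -0.03, -0.05 and 0.08, beside -0.01, 0.03 and -0.05 over all genes. Against each DMSO library singly, 2 of the 34 (5.88%), IL1RAPL1 and SOCS1, passed 2-fold upwards at 12 h, and 0 passed it downwards. Over all genes these shares were 3.88% and 0.993%.

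Of the 10 other ligands of the IL-1 family, 3 passed the filter. IL1A was at 0.233 and 61.1 FPKM in DMSO, 0.785 and 22.7 FPKM at 2 h, 1.32 FPKM at 6 h and 1.25 FPKM at 12 h. IL1B was at 3.19 and 95.1 FPKM in DMSO, 3.67 and 52.8 FPKM at 2 h, 5.41 FPKM at 6 h and 7.80 FPKM at 12 h. Both, like IL33, were high in the recovered libraries, and their direction at 12 h turned with the DMSO library (IL1A 2.02 and -5.50, IL1B 1.26 and -3.59 on the log2 scale). IL18 was steadier, with 14.6 and 14.5 FPKM in DMSO, 27.3 and 18.5 FPKM at 2 h, 24.1 FPKM at 6 h and 21.0 FPKM at 12 h. Its 2 h value was not called, with a log2 fold change of 0.62 (limma, adjusted p = 1). IL1RN, the IL-1 receptor antagonist, had a mean below the filter, with 0.408 and 0.191 FPKM in DMSO and 1.41 FPKM at 12 h. IL37 had 0.176 and 0.135 FPKM in DMSO and was listed at 0 at 12 h, and IL36A, IL36B and IL1F10 were listed at 0 throughout.

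Of the 8 other receptors of the family, 4 passed. IL1RAPL1, an accessory protein known from neurons, had 0.988 and 0.791 FPKM in DMSO, 1.82 and 1.40 FPKM at 2 h, 1.06 FPKM at 6 h and 2.103 FPKM at 12 h. It lay above both DMSO libraries at 12 h, but at 6 h was close to them. For SIGIRR, an inhibitory receptor, the 12 h log2 fold change was -0.07. Of the 11 genes that carry the signal below ST2, 10 passed, and 0 of 10 were more than 2-fold higher or lower than the DMSO mean at any time (over all genes, 5.66% were higher and 3.1% lower at 6 h, and 6.48% and 3.76% at 12 h). Against single DMSO libraries 2 of them passed 2-fold. IRAK2, a kinase of the receptor complex, had 3.89 and 23.4 FPKM in DMSO, and the 12 h library differed from these by 1.06 and -1.49 on the log2 scale. MYD88, the adaptor of the receptor complex, had 15.4 and 12.3 FPKM in DMSO and 15.6 FPKM at 12 h. IRAK1 was at 104 and 40.2 FPKM in DMSO and 67.1 FPKM at 12 h, between the replicates, and the 6 h library stood 1.07 above the recovered DMSO library on the log2 scale. TAB2 and MAP3K7, which carry the signal towards NF-kappaB, had log2 fold changes of -0.26 and -0.16 at 12 h.

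The receptor axis of IL-4 and IL-13, through which STAT6 is activated, had 7 of 13 genes above the filter. SOCS1, a feedback inhibitor of JAK kinases, was at 1.58 and 1.31 FPKM in DMSO, 6.55 and 4.11 FPKM at 2 h, 7.43 FPKM at 6 h and 7.17 FPKM at 12 h. Every treated library stood above both DMSO libraries. Against DMSO, SOCS1 at 2 h had a log2 fold change of 1.78, standard error 0.31, which was not called (limma, adjusted p = 1, and adjusted p = 0.329 with a replicate block), and it was 2.29 at 6 h and 2.24 at 12 h. CISH, a related inhibitor, fell below the filter but had the same order, with 0.185 and 0.124 FPKM in DMSO, 0.974 and 0.533 FPKM at 2 h, 1.46 FPKM at 6 h and 1.32 FPKM at 12 h. SOCS3 had log2 fold changes of 0.14, 0.83 and 0.80 at the 3 times, within 2-fold. IL4R, the receptor chain that IL-4 and IL-13 share, had 5.56 and 7.67 FPKM in DMSO, 8.97 FPKM at 6 h and 10.5 FPKM at 12 h, and its 12 h log2 fold change was 0.68. JAK1, IL13RA1 and TYK2 had 0.08, -0.14 and -0.08. The cytokines themselves were barely measured, with IL13 at or under 0.291 FPKM and IL4 above 0 only at 12 h (0.198 FPKM).

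Of 10 genes known to be induced through STAT6, 2 passed the filter, and 0 of 2 were more than 2-fold higher at any time. Over all genes 2.32%, 5.66% and 6.48% were higher at 2 h, 6 h and 12 h, so nothing is read from 0 of 2. TGM2, a transglutaminase, had 201 and 331 FPKM in DMSO, 167 and 263 FPKM at 2 h, 168 FPKM at 6 h and 150.4 FPKM at 12 h. POSTN, the matrix protein periostin, had 5.92 and 6.96 FPKM in DMSO and 3.44 FPKM at 12 h. At 12 h their log2 fold changes were -0.78 and -0.88, and TGM2 had -0.42 against the first and -1.14 against the recovered DMSO library. Among the others, CCL17 was at 0.349 FPKM and MRC1 at 0.312 FPKM at 12 h, against 0 and at most 0.0317 FPKM in DMSO, and CLCA1, FCER2 and SERPINB4 were listed at 0 throughout.

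GATA2 was the only 1 of 4 factors known to act on the IL1RL1 promoters that passed the filter. It had 18.2 and 31.5 FPKM in DMSO, 23.2 and 30.6 FPKM at 2 h, 74.1 FPKM at 6 h and 54.1 FPKM at 12 h. The 6 h and 12 h libraries stood above the other 4, with log2 fold changes of 1.63 and 1.17, while at 12 h the value was 0.78 against the recovered DMSO library and so within 2-fold. At 2 h the GATA2 value was 0.16, with a 95% interval from -0.93 to 1.24 (limma, adjusted p = 1). GATA3 did not exceed 1.38 FPKM, SPI1 did not exceed 0.157 FPKM and GATA1 was listed at 0.

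**Figure D4:**
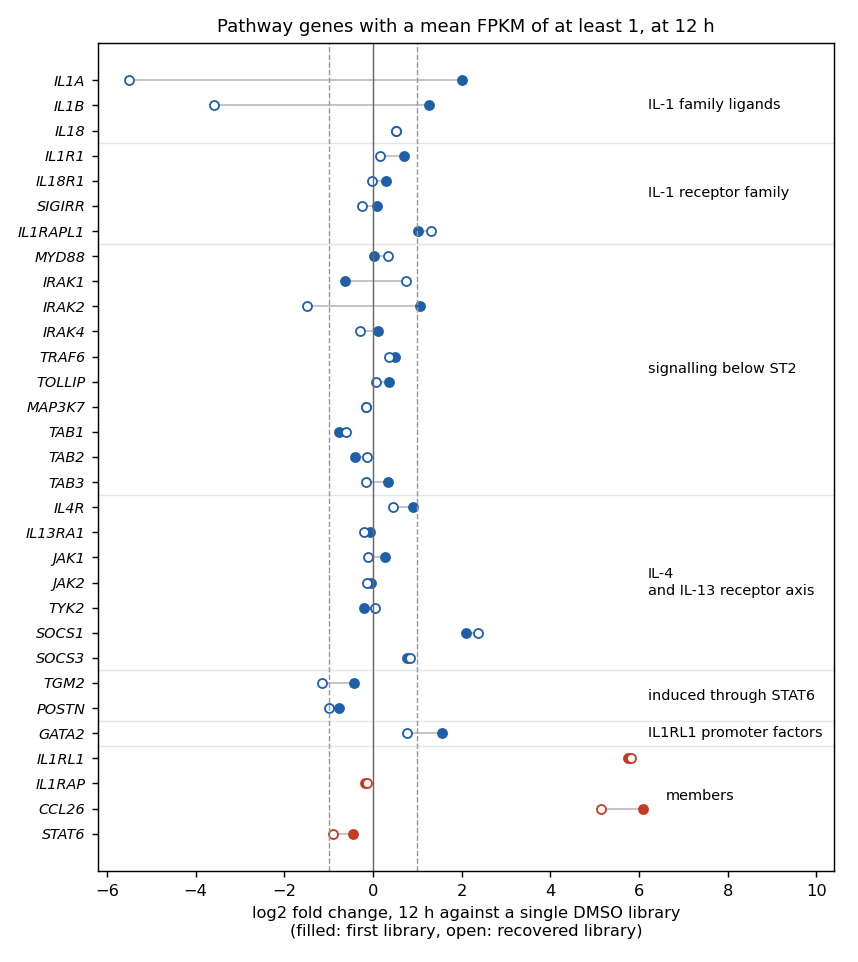
Log2 fold change on log2(FPKM + 0.1) of the 12 h library against the first (filled) and the recovered (open) DMSO library, for pathway genes that averaged at least 1 FPKM, by list, and for IL1RL1, IL1RAP, CCL26 and STAT6 (red). Dashed lines mark 2-fold. Only IL1RAPL1 and SOCS1 among the listed genes lie past 2-fold in the same direction against both libraries, and the distance between the 2 points of IL1A and IL1B shows how far the DMSO libraries differ.

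General epithelial markers were high in all libraries, whereas MUC16 (CA-125), the marker on the list that is most used for ovarian cancer, stayed below the filter. EPCAM stood at 77.4 to 86.5 FPKM, KRT8 at 1459 to 2194 FPKM and KRT18 at 1242 to 1742 FPKM, while MUC16 did not exceed 0.686 FPKM. Over 6 markers of mast cells and other type 2 immune cells, the summed level was 0.102 and 0.112 FPKM in DMSO, 0.0155 and 0.241 FPKM at 2 h, 0.323 FPKM at 6 h and 0.362 FPKM at 12 h. FCER1A was listed at 0 in every library, CPA3 did not exceed 0.0785 FPKM and TPSAB1, the highest, did not exceed 0.222 FPKM. Of the 6 markers, 0 passed the filter, and TPSAB1 made 0.222 of the 0.362 FPKM at 12 h. That sum was highest in the libraries where IL1RL1 and CCL26 were highest, but not every marker followed it. It was lowest in the first 2 h library (0.0155 FPKM), where IL1RL1 at 1.498 FPKM already stood above DMSO. PTPRC had 0.0317 and 0.0177 FPKM in DMSO and 0.0155 and 0.0206 FPKM at 2 h. It was listed at 0 at 6 h and had 0.0166 FPKM at 12 h. KIT did not exceed 0.0256 FPKM. The part of such cells in the levels of IL1RL1 and CCL26 was not tested. Of 4 fibroblast markers, 2 passed the filter, and the summed level was 3.23 to 7.11 FPKM. The table gives no read counts, and the read number that the methods state per sample cannot be checked in it, so no counting error is given. Relative depth ranged from 0.769 to 1.11 of the first DMSO library, and the microRNA entry MIR6723 held 25% of all FPKM in recovered DMSO, 21.8% at 2 h in the recovered library, but 5.04% to 9.19% in the others.

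The genes whose course over the 6 libraries was most like that of IL1RL1 were looked up in the same way for CCL26. Among 515 genes that averaged at least 1 FPKM and spanned at least 3 on the log2 scale, Pearson's r with IL1RL1 was highest for HSPA7 (0.990), HSPA1A (0.986), GADD45G (0.986), DNAJB1 (0.982) and BAG3 (0.981). HSPA1A encodes the inducible HSP70 chaperone, DNAJB1 and BAG3 its cochaperones, and GADD45G a growth arrest and DNA damage inducible protein. HSPA1A was at 44.3 and 33.7 FPKM in DMSO, 326 and 446 FPKM at 2 h, 959 FPKM at 6 h and 1330.1 FPKM at 12 h. GADD45G, near to IL1RL1 in level, had 0.161 and 0.180 FPKM in DMSO, 1.74 and 1.88 FPKM at 2 h, 5.51 FPKM at 6 h and 6.78 FPKM at 12 h. HSPA7 and HSPA1A have near-identical copies in the genome, so that their shares of reads are uncertain.

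CCL26 had a different set of nearest genes. Its highest r was with MMP10 (0.983), MMP1 (0.967), RAB7B (0.962), SNORD15B (0.933) and IGF2-AS (0.932). MMP10 and MMP1 encode secreted proteases of the extracellular matrix. MMP10 had 0.0451 and 0.101 FPKM in DMSO, 0.0883 and 0.411 FPKM at 2 h, 2.55 FPKM at 6 h and 18.0 FPKM at 12 h. MMP1 had 0.380 and 0.466 FPKM in DMSO, 0.446 and 0.296 FPKM at 2 h, 2.39 FPKM at 6 h and 18.4 FPKM at 12 h. Both were highest at 12 h. At 2 h MMP10 was above both DMSO libraries in the recovered library, and MMP1 was below both there. SNORD15B was listed at 0 in all 4 DMSO and 2 h libraries. Between IL1RL1 and CCL26 themselves r was 0.788. All of these are descriptions over 6 libraries that include the same treatments, and they carry no test. By the root-mean-square distance of log2 fold changes instead, 2 of the 5 genes nearest to IL1RL1 and 1 of the 5 nearest to CCL26 were the same.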

How the data were processed

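RNA from OVCAR5 cells was sequenced in 6 libraries. Per the study's methods and the submitters' processing notes, the authors used Trim Galore for trimming, TopHat2 2.0.8 for alignment, and Cufflinks 2.1.1 and Cuffdiff 2.1.1 for expression values. The deposited table holds FPKM values for the members of 4 Cuffdiff comparisons, with log2 fold changes, p-values and q-values of their own that were not used. The loci are those of hg38, although a mouse build is also named. Columns that matched no sample or group numbered 0. The columns named for replicate 2 of DMSO and 2 h were read, from their values alone, as the authors' means of a group. The first library had a share of 0.526 and 0.509 in them (from 811 and 964 rows at the lower limit), and replicate 2 was recovered by subtracting it, with remainders under 0.2% of the mean taken as 0. The 6 h and 12 h values were rescaled to match the first comparison, using their common DMSO library (factors 0.972 and 0.994). All values set across comparisons rest on these steps.

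Rows of 1 symbol were summed (33085 rows, 29982 symbols), and log2(FPKM + 0.1) was used for the 13287 genes averaging at least 1 FPKM. The 2 h and DMSO libraries were compared with limma 3.58.1 in R 4.3.3 (Benjamini-Hochberg adjustment over all genes, 2 against 2, two-sided), tested on simulated data. No test was made at 6 h and 12 h, which have 1 library each. Tables were made with pandas 2.3.3 in Python 3.11.15. The genes and lists were chosen with earlier results of these data known. Named were the 6 genes, from each list those past 2-fold against each DMSO library at 12 h with up to 3 of the highest mean, genome neighbours, and the 5 genes of highest r with IL1RL1 and with CCL26. Markers and low-level genes named beyond this, such as PECAM1, CX3CR1, GATA3 and IL13, were chosen after their values were seen. Promoter sequences are from RefSeq (GRCh38.p14), where all 6 genes matched. Alternatives were other pseudocounts, filters and scalings, an intensity trend, a replicate block, the columns as deposited and leaving out each replicate.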

Additional observations from a re-analysis of the deposited data

How the results depend on the processing

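The directions of IL1RL1 at 2 h, 6 h and 12 h and of CCL26 at 6 h and 12 h held under every alternative run. The genes were selected on these values, and no alternative could leave out the single 6 h or 12 h library. The pseudocount set the size of the IL1RL1 change, with log2 fold changes of 1.34, 2.39 and 3.67 at 2 h, 6 h and 12 h for a pseudocount of 1 and 3.61, 5.00 and 6.45 for 0.01, since its DMSO level is near 0.1 FPKM. Leaving out each replicate gave 2.70 to 3.34 for IL1RL1 and -0.71 to 0.56 for CCL26 at 2 h. At 6 h and 12 h only a DMSO library could be left out. IL1RL1 then had 4.34 to 4.41 at 6 h and 5.77 to 5.83 at 12 h, and CCL26 2.19 to 3.16 and 5.14 to 6.10. These later ranges reflect the difference between the DMSO libraries alone and say nothing of spread at 6 h or 12 h. IL1RAP at 2 h changed sign around 0, with -0.041 under median-ratio scaling, -0.060 with the columns as deposited and -0.053 to 0.056 without single replicates, and STAT6 at 2 h ranged from -0.24 to 0.21 without single replicates. The number of genes called by limma at 2 h (3) was 5 with an intensity trend, 1 with a pseudocount of 1, 6 with 0.01, 0 without a filter (1198 at an unadjusted p under 0.05) and 110 with the columns as deposited. It was 12 or 20 without DMSO replicate 1 or 2, and 0 (202 unadjusted) or 21 without replicate 1 or 2 of 2 h. With a replicate block it was 0 (1874 unadjusted, against 378 without it). After the mean of its group was subtracted from each library, the correlation over genes of same-numbered libraries was 0.369. It describes these deviations and not the levels, and the labels do not say that a number marks a shared batch. The block changed no call for IL1RAP, STAT6 or a listed gene. Genes past 2-fold numbered 1164 at 6 h and 1360 at 12 h, 771 and 869 with a pseudocount of 1, and 2948 and 3395 without a filter. Without single DMSO replicates they ranged from 966 to 2063 at 6 h and 1627 to 1937 at 12 h, with a split that turned on the library: 50% of 2063 were higher at 6 h without DMSO replicate 1 and 86.3% of 966 without replicate 2 (64.6% with both), and 48.1% and 67.1% at 12 h (63.3% with both). The cause was not tested. Depth limits IL33, CCL24 and the DMSO level of IL1RL1, for which no counting error can be given.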
